A study of Mus musculus with 4 samples.

Results

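Marginal cells are the epithelial cells of the stria vascularis (SV) that face the endolymph of the cochlea, and here they were taken from the 3 whole-cell captures as 71 of 3330 cell barcodes, with 9 cells in capture 1, 42 in capture 2 and 20 in capture 3. They were chosen by measured values. A barcode was kept if it had at least 200 detected genes and at least 1% of its unique molecular identifiers (UMIs, the counted RNA molecules) from the nuclear RNA Malat1, if Lrp2, Kcnq1, Esrrb and Atp13a5 together gave at least 0.2% and at least 10 of its UMIs, if that sum was at least 3 times the sum of the intermediate cell genes Met, Pax3, Nrp2 and Pde1c and above the sum of the basal cell genes Cldn11, Tjp1, Col11a2 and Nr2f2, and if Slc26a4 and P2rx2 gave no more than 1 UMI. The levels of these 15 genes are therefore a description of the choice and were not tested. The same kind of rule gave 363 intermediate cells (65, 173 and 125) and 130 basal cells (13, 68 and 49) for comparison, but only 4 spindle-like cells, too few for a sum in each capture.

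The SV was dissected from postnatal day 30 (P30) CBA/J mice with no other allele or treatment, and was loaded on the 10x Genomics Chromium platform either as dissociated cells, in 3 captures, or as nuclei, in 1 capture. Each capture was made from pooled mice, so it is the replicate used here and does not show the spread between animals. The nuclei came from a separate suspension, and with 1 capture they have no replicate. Over all 4 captures 14387 barcodes were deposited.

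Marginal cells, intermediate cells and basal cells are the main cell layers of the SV. Marginal cells take up potassium across their folded basolateral membrane through the Na+/K+-ATPase and the Na-K-2Cl cotransporter Slc12a2, return chloride through channels that need barttin (Bsnd), and release potassium into endolymph through the apical channel formed by Kcnq1 and Kcne1. The positive potential of endolymph, which the hair cells use, depends on this layer and on the potassium channel Kcnj10 of the intermediate cells.

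The whole-cell captures held 2811309, 8113494 and 8340882 UMIs, and the marginal cells gave 100827, 450854 and 202499 of them. The median marginal cell had 10783, 11231.5 and 9713.5 UMIs in captures 1 to 3. Marginal cells were 2.38% of the barcodes with at least 200 genes in capture 1 (exact Clopper-Pearson 95% interval 1.09 to 4.47%), 3.16% in capture 2 (2.29 to 4.25%) and 1.35% in capture 3 (0.827 to 2.08%). These intervals, like all intervals given here, cover counting error only, and the gate and the dissociation also set such a share. The member nearest the limit had 0.209% of its UMIs from the 4 marginal genes and the nearest barcode that failed on this share alone had 0.166%. Of 121 barcodes past the marginal level, 31 were lost to the limit on Malat1, 13 to the ratio, 2 to the basal sum and 4 to Slc26a4 and P2rx2. For the count of those UMIs the values were 12 inside and 9 outside, for Malat1 1.01% and 0.932%, and for the ratio to intermediate genes 3.00 and 2.78. In the 31 lost to Malat1, 22 met every other condition. The captures shared 8 barcodes among themselves and 65 with the nuclei, and none of these was a marginal cell. No doublets were removed, and none of the 1, 15 and 20 barcodes with the highest Scrublet doublet scores in the 3 captures was a marginal cell. These numbers were fixed by an assumed rate of 0.8% per 1000 barcodes, so they do not show that the marginal cells are free of doublets.

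The label was checked against Kcne1, the subunit that sets the slow gating of Kcnq1, which the rule did not use. Its level was read as CPM, the UMIs of a gene in the summed cells of a capture scaled to a total of 1000000. It was 2370.4 in capture 1, 1404 in capture 2 and 1531 in capture 3, against 95.8, 82.1 and 51.9 in intermediate cells and 44.4, 62.3 and 35.6 in basal cells. No marginal capture overlapped either other type. The log2 fold change was 4.15 against intermediate cells (SE 0.20, adjusted p = 1.46e-21) and 4.88 against basal cells (SE 0.23, adjusted p = 1.87e-21) in the edgeR quasi-likelihood test with the Benjamini-Hochberg correction over 6246 genes, which every comparison below uses. Each of the 71 cells held a Kcne1 UMI, against 34.2% of intermediate and 27.7% of basal cells, and with each cell thinned to 3000 UMIs these shares were 95.8%, 15.4% and 9.68%. Neither other type is known to make Kcne1, and the source of its UMIs there was not tested. Among the genes of the gate, the endocytic receptor Lrp2 (megalin) stood at 3204 ± 523 CPM (SD, n = 3), Kcnq1 at 524 ± 122.8 CPM, the orphan nuclear receptor Esrrb at 578 ± 46.3 CPM and the P5-type ATPase Atp13a5 at 202 ± 16.0 CPM.

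**Figure D1:**
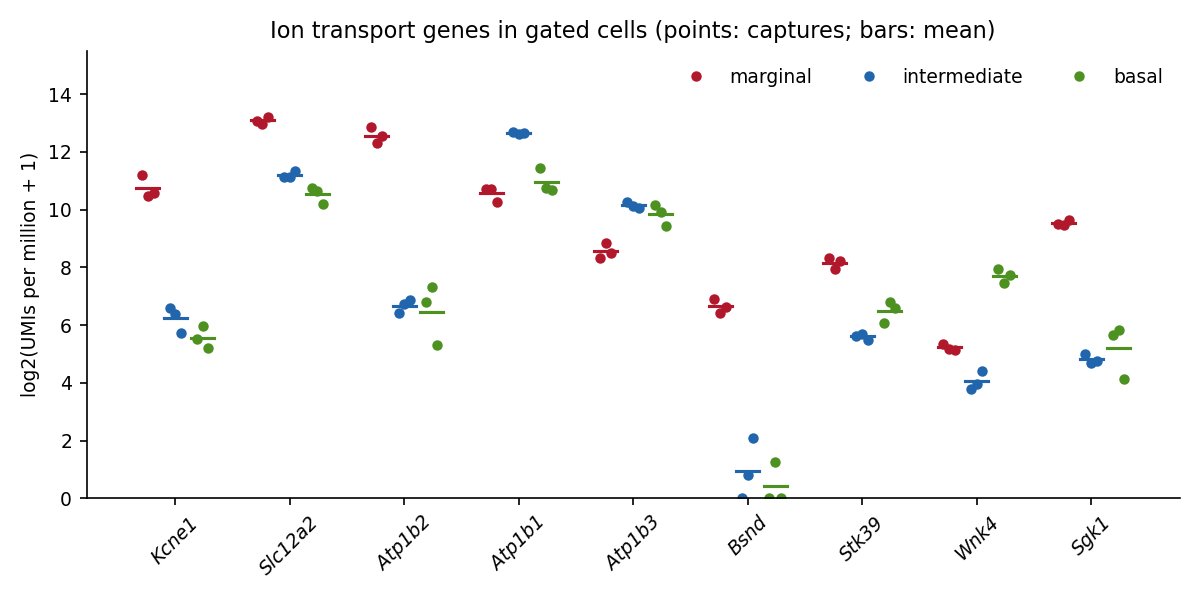
Levels of ion transport genes and Sgk1 as log2(CPM + 1) on the y axis, with 1 point for each of the 3 captures and a bar at their mean, for marginal, intermediate and basal cells. Kcne1, Slc12a2, Atp1b2, Bsnd, Stk39 and Sgk1 lie higher in all 3 marginal sums than in any other sum, while Atp1b1 and Atp1b3 lie below those of intermediate cells.

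Over all 6246 genes tested, 941 (15.1%) were higher and 912 (14.6%) lower in marginal than in intermediate cells, and 947 (15.2%) were higher and 1061 (17%) lower than in basal cells, at an adjusted p under 0.05. Higher than both were 633 genes (10.1%) and lower than both 357 (5.72%). Capture 2 gave most of the marginal UMIs, and without it 577 genes were higher and 512 lower than in intermediate cells, and 590 higher and 619 lower than in basal cells. The comparisons share the marginal sums, so they are given side by side. Fold changes are after scaling by trimmed means (TMM), and CPM is not. Without that scaling the median over all genes moved up by 0.33 on the log2 scale against intermediate cells and by 0.15 against basal cells, and the higher share of the calls went from 50.8% to 73.2% and from 47.2% to 57.6%.

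Markers of the other strial types were also read in the marginal sums. Of 15 intermediate cell markers outside the gate, 12 had UMIs in marginal cells, and their sum was 5891, 6594 and 4795 CPM, which is 18.0%, 24.5% and 20.7% of the sum in the intermediate cells of the same captures. The sum in basal cells was 10587, 6657 and 5087 CPM. Most of it was Dct, the dopachrome tautomerase of pigment cells, at 4136, 4338 and 2968 CPM in marginal cells and 19718 ± 4456 CPM in intermediate cells. The other 3 markers, Tyrp1, Kit and Pmel, were at 0 in marginal cells and had at most 1 UMI in intermediate cells. The 8 basal markers that could be tested were lower than in basal cells, which for those that only basal cells carried past the filter on low counts was fixed beforehand, and Igfbp2, Gja1, Ebf2, Nr2f1 and Emp2 were at 0. Of 10 markers of spindle and root cells, Tdrd12, Lgr5, Sfrp1 and Kcnj16 were at 0 and the sum was mostly Cldn9, a junction gene described below. Marker sums of fibrocytes (29.8, 24.4 and 29.6 CPM, led by Otos, with Col3a1, Lum and Col1a1 at 0), pericytes (29.8, 11.1 and 19.8), endothelial cells (0, 2.22 and 0) and macrophages (9.92, 6.65 and 9.88) stayed under 30 CPM in each capture. The basal sums held more fibrocyte marker RNA, at 477, 1325 and 1809.8 CPM. Markers of B cells came to 0, 26.6 and 4.94 CPM, with Cd79a, Cd79b and Ms4a1 at 0, against 433, 525 and 609 CPM in basal cells. Only 1 of the 6 listed B cell genes passed the filter on low counts, at -5.96 on the log2 scale against basal cells. That basal sum therefore does not show the B cell list as a whole. Neutrophil markers, led by S100a8, came to 0, 0 and 54.3 CPM. Cell cycle genes, led by Pcna, summed to 9.92, 33.3 and 64.2 CPM, and the 1 that could be tested passed in neither comparison. Erythroid markers, led by Hbb-bs, came to 198, 324 and 1985 CPM, and capture 3 was also the highest for them in intermediate and basal cells. The part of RNA from other cells in the results was not tested beyond the stricter gate given below.

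The intermediate markers varied from cell to cell. They were 0.0927%, 0.392% and 0.113% of the UMIs of the median marginal cell in captures 1 to 3, and 1.59%, 1.74% and 1.55% of the cell with the most. In capture 1 the largest cells, with 13534, 14431 and 17370 UMIs, held 67, 180 and 145 Dct UMIs. The next largest there, with 10825 UMIs, held 2. In capture 3 the largest cell, with 17907 UMIs, held 3. Whether the cells rich in Dct were doublets was not tested. A stricter gate, with the marginal sum at least 10 times the intermediate sum, kept 47 cells (7, 26 and 14) and left the marker sum at 2173, 3119 and 1289.6 CPM. Dct was then at 1333, 2018 and 607 CPM. Some values below are given with this gate as well.

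**Figure D2:**
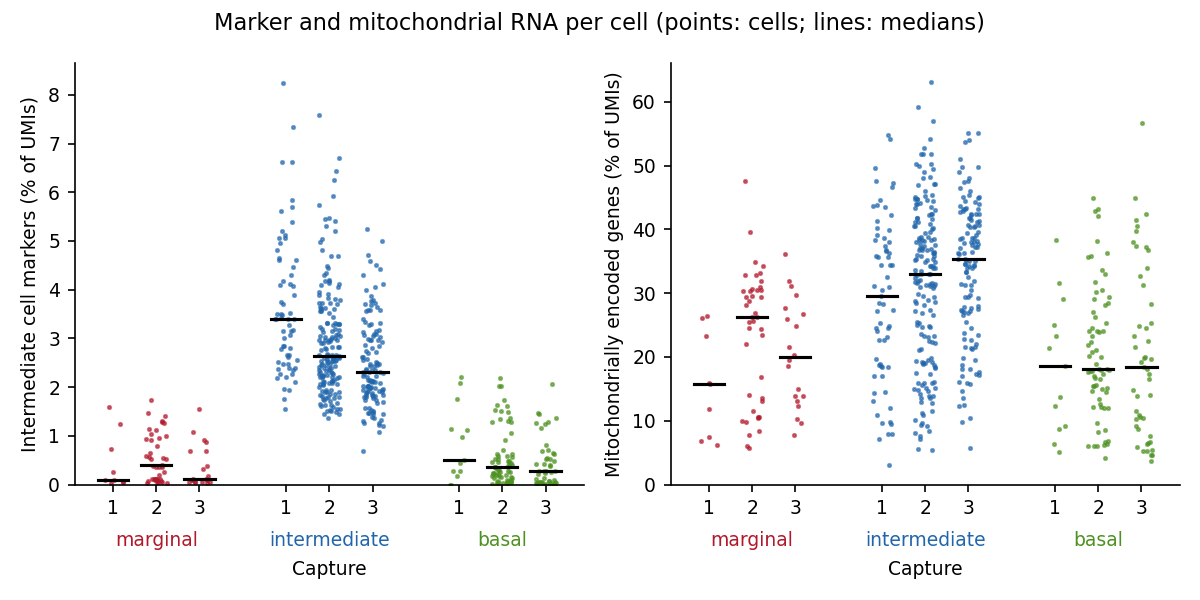
Share of UMIs from intermediate cell markers (left, in percent) and from mitochondrially encoded genes (right, in percent) in each marginal, intermediate and basal cell by capture, with 1 point a cell and a line at the median. No marginal cell passes 1.74% of markers, and the median mitochondrial shares of marginal cells were 15.8%, 26.3% and 20.0%, with single cells from 5.79 to 47.6%.

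Of 13 listed genes of potassium secretion and its sodium and chloride support, 12 could be tested. Of these, 6 were higher and 2 lower than in intermediate cells, and 7 were higher and 5 lower than in basal cells. With the stricter gate 4 were lower than in intermediate cells. The list's median log2 fold change was 1.20 and 1.43, where all tested genes had -0.01 and -0.03. Here and below the median of a list with few tested genes is set by 1 or 2 of them. The counts of a list stand beside the shares of all tested genes. These were 15.1% higher and 14.6% lower than in intermediate cells, and 15.2% higher and 17% lower than in basal cells. Leaving out each capture in turn changes which genes are tested, and where a median moved it is given as a range over the 3 captures left out. A gene that passed the filter on low counts through 1 type alone had to be higher there, so counts and medians over the tested genes describe those genes and not the whole list.

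Slc12a2, the cotransporter that loads the cell with potassium and chloride, was at 8509.6, 8071 and 9561 CPM, against 2347 ± 211 CPM in intermediate cells and 1492 ± 276 CPM in basal cells. The 3 types did not overlap. It was higher by 1.53 (SE 0.19, adjusted p = 3.38e-09) and by 2.37 (SE 0.19, adjusted p = 5.16e-14) on the log2 scale.

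The beta subunits of the Na+/K+-ATPase differed from one another. Atp1b2 (chr11:69599736-69605942 in GRCm38, minus strand), was at 7359, 5057 and 5926 CPM in marginal cells and at 84.5, 104 and 116 CPM in intermediate cells, with 102 ± 59.9 CPM in basal cells. Marginal cells were higher by 5.53 (SE 0.26, adjusted p = 1.01e-20) and by 5.68 (SE 0.27, adjusted p = 6.24e-20) on the log2 scale, with no overlap. Atp1b1 went the other way, at 1676, 1672 and 1229.6 CPM against 6465 ± 132 CPM in intermediate cells, which is -2.44 on the log2 scale (SE 0.20, adjusted p = 4.96e-14). Against basal cells (2026 ± 627 CPM) its captures overlapped, with a change of -0.55 (SE 0.20, adjusted p = 0.025). With the stricter gate Atp1b1 was at 420, 584 and 396 CPM and the changes were -4.06 and -2.16. Atp1b1 overlaps Nme7 on the other strand, and as the sources used here do not say whether counting used strand, its counts are uncertain to that extent. Atp1b3 was also lower than in both types, by 1.88 and 1.39 on the log2 scale, and with the stricter gate it was at 116, 296 and 109.6 CPM, with changes of -2.87 and -2.35.

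On the chloride side, Bsnd (barttin), the accessory subunit of the basolateral chloride channels, was at 119, 84.3 and 98.8 CPM. The other types held few UMIs of it, with 4 UMIs in all intermediate cells (log2 fold change 5.56, SE 0.50, adjusted p = 7.82e-13) and 1 UMI in basal cells, a ratio of 116 with a 95% counting interval of 20.2 to 4651. The kinases upstream of Slc12a2 did not move as a group. Stk39 (SPAK), which phosphorylates the cotransporter, was at 317, 246 and 296 CPM and higher than in both types (2.17, adjusted p = 3.27e-12, and 1.34, adjusted p = 9.52e-07). Its relative Oxsr1 (20.8 ± 3.56 CPM) and the kinases Wnk1 (150.1 ± 28.2 CPM) and Wnk4 (36.6 ± 2.72 CPM) were lower than in basal cells, by 1.95, 0.89 and 2.61 on the log2 scale. None of these 3 passed the test against intermediate cells.

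**Figure D3:**
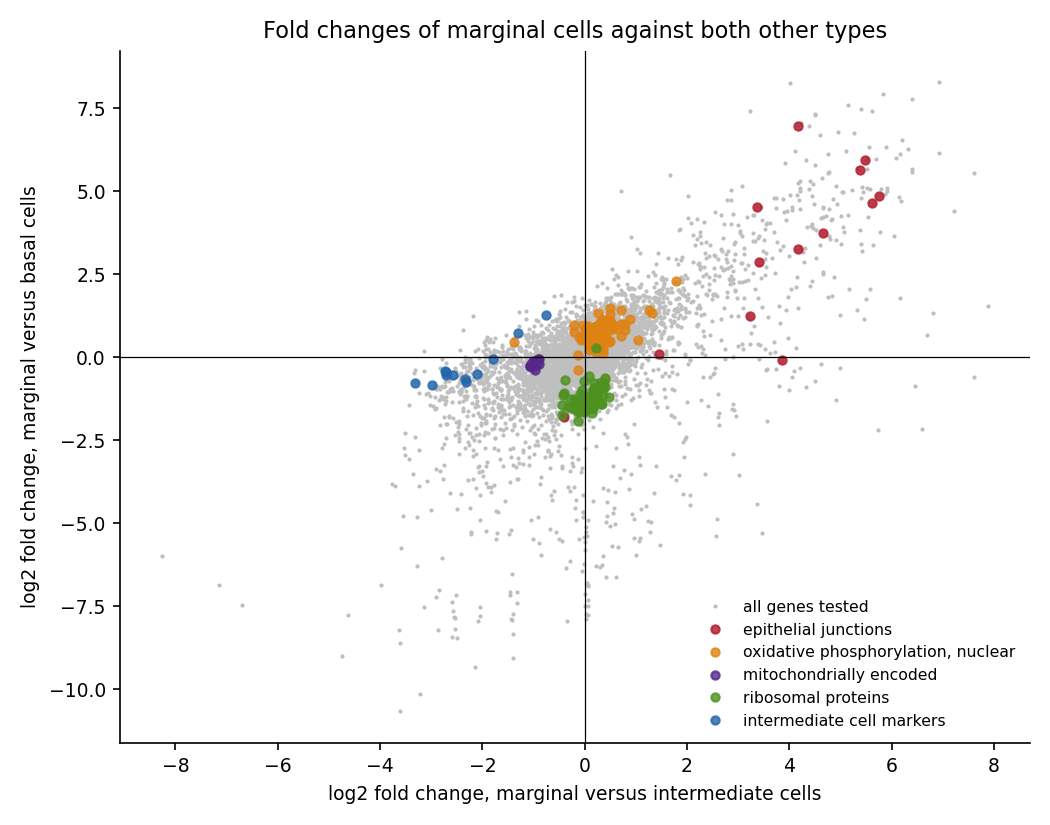
Log2 fold change of marginal over intermediate cells (x axis) and over basal cells (y axis) for the 6246 tested genes in grey, with 5 lists in colour, and the axes share the marginal sums. Most junction genes lie at the upper right, nuclear genes of oxidative phosphorylation mostly above 0 on the y axis, mitochondrially encoded genes near -1.02 on the x axis and ribosomal protein genes near -1.28 on the y axis.

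By a rule of size, genes higher than both types in all captures and with a mean of at least 50 CPM were ranked by the smaller of their fold changes. The first 20 genes were Shroom3, Nipal1, Tacr3, Tnfrsf21, Sel1l3, Enpep, Spint1, Gata3, Gpr176, Ankrd33b, Rasgrp1, Kcnk1, A530020G20Rik, Bsnd, Gyltl1b, Atp1b2, Slco1a5, Cldn9, Epcam and Hs3st6. For 14 of them at least one other type held 3 or fewer UMIs, so that their order depends on the prior count of the fit. Enpep, the aminopeptidase that cleaves angiotensin II (chr3:129269175-129332720), was at 1696, 1331 and 1467 CPM, where intermediate cells had 13.0, 22.0 and 10.8 CPM and basal cells 11.1, 24.1 and 13.7 CPM. Its log2 fold change was 6.16 (SE 0.24, adjusted p = 1.07e-24) and 6.13 (SE 0.27, adjusted p = 1.51e-22). Tnfrsf21, a death receptor of the tumour necrosis factor family, was at 674, 563 and 598 CPM (6.20, SE 0.27, adjusted p = 5.06e-22, and 6.55, SE 0.34, adjusted p = 1.17e-19). Hs3st6, a heparan sulfate sulfotransferase, was at 446, 366 and 356 CPM, with changes of 5.32 and 5.71. For these 3 genes every marginal capture lay above every capture of the other types.

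Shroom3, an actin-binding protein of apical constriction, was at 109, 71.0 and 98.8 CPM, with 1 UMI in all intermediate cells (ratio 239, counting interval 41.3 to 9571) and 0 in basal cells, which makes it at least 34.8-fold higher with a floor of 3 counts over the group. Tacr3, the neurokinin B receptor, was at 179, 129 and 207 CPM (6.32 against the 4 UMIs of intermediate cells, SE 0.41, adjusted p = 1.99e-17, and a ratio of 97.9, 26.5 to 818, to the 2 of basal cells). Gpr176, an orphan receptor, was at 109, 68.8 and 34.6 CPM, and basal cells had none, so it was at least 27.1-fold higher there. Spint1, an inhibitor of epithelial serine proteases, was at 179, 97.6 and 173 CPM, and Kcnk1, a two-pore potassium channel, at 317, 171 and 198 CPM. Shroom3, Gpr176, Gata3, Gyltl1b, Slco1a5 and A530020G20Rik overlap genes on the other strand, and further genes named here do so too (Zeb2, Klf7, Wnk4, Esrra, Kcnn2, Itpr1 and Aldoa), with the same limit as for Atp1b1. At the other end, among genes lower than both types with at least 50 CPM in both of them, the first 5 by the same ranking were Ptn, Zeb2, Ifitm3, Gjb6 and Klf7. Ptn, the secreted factor pleiotrophin, was at 59.5, 184 and 143 CPM against 673 ± 36.9 CPM in intermediate and 2201 ± 897 CPM in basal cells, by -2.64 (SE 0.26, adjusted p = 3.49e-11) and -4.10 (SE 0.26, adjusted p = 1.08e-16). Ifitm3, an interferon-induced membrane protein, had 59.5, 84.3 and 114 CPM, with no overlap with either type. Gjb6, the gap junction protein connexin 30, had 198, 306 and 267 CPM, and its partner Gjb2 (connexin 26) 258, 262 and 178 CPM. Gjb2 was lower by 2.18 on the log2 scale than in intermediate cells and by 3.67 than in basal cells, and Gjb6 by 2.34 and 2.74. With the stricter gate Gjb2 gave -3.10 and -4.55, and Gjb6 -3.50 and -3.86.

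Among genes of epithelial junctions and keratins, 24 were listed, 19 had UMIs in marginal cells and 13 could be tested. Against intermediate cells 12 were higher and none lower, and against basal cells 9 were higher and 1 lower. Medians over the 13 were 4.17 and 3.75 on the log2 scale. Without a capture they were 3.86 to 4.82 and 3.53 to 4.59, the highest without capture 2, where 10 could be tested. Some of them were nearly absent from the other types, such as Cldn7, with 29 UMIs in marginal cells and 3 in each other type. Cldn9, a tight junction claudin, was at 704, 413 and 583 CPM, with 9.14 ± 3.25 CPM in intermediate and 7.45 ± 4.28 CPM in basal cells (5.48, SE 0.24, adjusted p = 1.18e-22, and 5.94, SE 0.31, adjusted p = 2.2e-20). Epcam, an epithelial adhesion molecule, was at 377, 326 and 469 CPM (5.39 and 5.65). Cldn3 (112 ± 42.0 CPM, overlapping Wbscr25 on the other strand) and F11r, the junctional adhesion molecule A (136 ± 28.5 CPM), were higher than both as well. Ocln (occludin), with 99.2, 84.3 and 64.2 CPM, was higher than in intermediate cells (3.86, adjusted p = 9.64e-12), while in basal cells its 76.7 ± 21.3 CPM overlapped (-0.09, SE 0.25, adjusted p = 0.841). Cdh1, the cadherin of adherens junctions, was the only one of the 13 that was lower than in basal cells. It stood at 129, 222 and 183 CPM, where basal cells had 672, 619 and 485 CPM (-1.80, adjusted p = 8.06e-10) and intermediate cells 197 ± 26.7 CPM (-0.40, SE 0.21, adjusted p = 0.151).

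Transcription factors moved both ways. Of 15 tested factors of the inner ear epithelium and of neural crest, 8 were higher and 5 lower than in intermediate cells, and 7 were higher and 6 lower than in basal cells, with medians of 2.95 and -0.06. The second median was 0.10 without TMM scaling, 0.41 with the stricter gate and 0.13 to 1.27 without a capture. Lmx1a, a LIM homeodomain factor of the otic vesicle, was at 149, 146 and 143 CPM, against 2.17 ± 1.44 CPM in intermediate and 2.80 ± 2.83 CPM in basal cells (5.44, SE 0.38, adjusted p = 4.29e-16, and 4.98, SE 0.43, adjusted p = 2.88e-13). Gata3, the factor lost in a syndrome of deafness, hypoparathyroidism and renal dysplasia, was at 446, 175 and 252 CPM (5.89 against intermediate cells, adjusted p = 5.95e-20, and a ratio of 96.8, 32.6 to 474, to the 3 UMIs of basal cells). Pax2, which patterns the otic placode, was at 99.2, 97.6 and 104 CPM (5.33 and 1.44). Hmx2, a homeodomain factor of the inner ear, was at 248, 115 and 84.0 CPM (4.66 and 4.51). Pax2, Gata3 and Hmx2 overlap genes on the other strand. Sox9 lay between the types, at 89.3, 153 and 232 CPM, above 17.7 ± 7.37 CPM in intermediate cells (2.95, adjusted p = 5.26e-11) and below 496 ± 107 CPM in basal cells (-1.78, adjusted p = 6.67e-09). Pou3f4, the factor of mesenchymal otic cells, had 0 UMIs in marginal cells and 162 in basal cells, at least 32.6-fold lower. Among factors of pigment cells, Mitf (79.3, 129 and 133 CPM) and Tbx2 (109, 149 and 114 CPM) were lower than in intermediate cells, by 1.79 and 2.37 on the log2 scale, and neither passed the test against basal cells. With the stricter gate Mitf was at 72.4, 58.4 and 59.0 CPM and was lower than in both types, with log2 fold changes of -2.74 (adjusted p = 4.66e-12) and -0.998 (adjusted p = 0.00976). Sox10, a factor of neural crest that the otic epithelium also makes, was at 149, 211 and 242 CPM, with 293 ± 62.9 CPM in intermediate and 86.2 ± 31.3 CPM in basal cells (-0.76, adjusted p = 0.00157, and 1.28, adjusted p = 2.83e-05). It stayed at 188, 154 and 278 CPM with the stricter gate, by -0.80 and 1.24. Of the 7 Notch pathway genes tested, the target Heyl was the only one higher, at 129, 142 and 143 CPM against 3.97 ± 0.827 CPM in intermediate cells (4.77, SE 0.35, adjusted p = 2.49e-15), with a ratio of 87.9 (23.7 to 735) to the 2 UMIs of basal cells. Another 3 were lower than in intermediate cells (0 without capture 2) and 4 lower than in basal cells (2 without capture 2), with medians of -0.83 (-1.21 to -0.24 without a capture) and -1.85 (-2.10 to -1.20).

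Esrrb, one of the genes of the gate, binds the estrogen-related receptor response element TCAAGGTCA, so promoters from 250 bases before to 50 after each RefSeq gene start (GRCm38.p6) were searched for these letters on both strands. They were in 139 of 32851 promoters (0.423%), and in 5 of the 415 (1.2%) that matched 325 of 434 listed and named genes. Of the 6 promoters listed for Sgk1, 2 held them, and the matches are shown because Sgk1 and the energy genes are compared below. The sites are shown with 10 flanking bases on the strand of the gene, and the capitals mark the element, written TGACCTTGA where it lies on the other strand.
Sgk1, chr10:21978599-21978627, plus strand, position -63 from the start: aggaccgggcTGACCTTGAacttttgaag
Sgk1, chr10:21985990-21986018, plus strand, position -104 from the start: atctccgagtTCAAGGTCAtccgggatta
Atp13a4, chr16:29545055-29545083, minus strand, position -209 from the start: cgaggacatgTGACCTTGAacagttcttg
Atp5g3, chr2:73911360-73911388, minus strand, position -52 from the start: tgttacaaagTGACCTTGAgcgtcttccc
The fifth match was in Sdhd, after its start. None of the 15 promoters of the 13 matched rule genes held the letters, nor did the 4 of Lrp2, Esrrb and Atp13a5. A match is a description of the sequence and not a bound site.

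Sgk1, the kinase that corticosteroids induce and that raises sodium and potassium transport, was at 724, 703 and 790.1 CPM. Intermediate cells had 30.9, 25.1 and 26.0 CPM and basal cells 50.0, 56.6 and 16.5 CPM. The marginal captures did not overlap either type, with log2 fold changes of 4.43 (SE 0.21, adjusted p = 1.28e-21) and 3.94 (SE 0.23, adjusted p = 1.21e-18). No other tested gene of sodium absorption and corticosteroid response was higher than in both types. The glucocorticoid receptor Nr3c1, at 54.4 ± 8.67 CPM, was lower than in both types by 1.04 and 1.20 on the log2 scale, and its target Tsc22d3, at 5.34 ± 5.56 CPM, was lower than in basal cells by 3.07. Atp13a4, a relative of Atp13a5, had 9.92, 31.1 and 19.8 CPM, too low for the test, with 1 UMI in all intermediate cells and 0 in basal cells. Its relative Atp13a2, at 59.5, 37.7 and 54.3 CPM, was higher than in both (1.83, adjusted p = 0.000361, and 1.17, adjusted p = 0.0302). Of the estrogen-related receptors outside the gate, Esrra had 59.5, 79.8 and 114 CPM and was higher than in basal cells (1.64, adjusted p = 5.87e-05) but not past the threshold against intermediate cells (0.39, SE 0.25, adjusted p = 0.253). Ppargc1a, the coactivator of these receptors and of mitochondrial genes, was also higher than in basal cells (181 ± 25.5 CPM, 1.66, adjusted p = 4.13e-07). Against intermediate cells Ppargc1a did not pass the threshold (-0.24, SE 0.19, adjusted p = 0.39, which is 0.10 without TMM scaling). Over the 6 tested genes of this family and of its listed targets, 3 were higher than in intermediate cells, and 5 were higher and 1 lower than in basal cells, with medians of 1.11 and 1.65. Without capture 1, 8 could be tested, 5 were higher than in intermediate cells and the medians were 1.94 and 2.92, where without capture 2 or 3 they were 1.13 and 1.40 to 1.97.

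Lrpap1, the chaperone of megalin, was at 1696, 1107 and 1304 CPM, against 67.4 ± 12.9 CPM in intermediate and 71.4 ± 20.2 CPM in basal cells. Its log2 fold change was 3.93 (SE 0.20, adjusted p = 2.87e-21) and 4.13 (SE 0.22, adjusted p = 6.24e-20). The other 9 tested genes of megalin endocytosis passed the test in neither comparison, and the list's median was 0.15 (0.12 to 0.36 without a capture) and 0.04 (-0.03 to 0.14). With the stricter gate 2 of the 10 were higher in each comparison, and without TMM scaling 4 were higher than in intermediate cells. Of 11 tested genes of cholesterol and lipid handling, only Abcg1, a sterol exporter, was higher in both comparisons, at 208, 233 and 202 CPM (5.54, SE 0.31, adjusted p = 9.56e-20, and 4.23, SE 0.31, adjusted p = 1.2e-15), while 4 were lower than in intermediate and 5 than in basal cells (3 without capture 2). Among the lower genes were the exporter Abca1 (79.6 ± 18.3 CPM, -2.19 and -0.84) and the lipid carrier Apoe (85.6 ± 14.9 CPM, -2.13 and -3.94).

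Other ion transport genes included several higher in marginal cells. Of 6 tested potassium channel genes outside the first list, Kcnk1, Kcnn2 (49.6, 48.8 and 49.4 CPM) and Kcnab1 were higher than both types, 3 were lower than in intermediate and 1 lower than in basal cells, and the medians were 0.67 and 1.29. These medians were -3.46 and -1.86 with the stricter gate and 0.39 to 3.28 and 1.10 to 2.85 without a capture, the highest without capture 3, and 2 were lower than in basal cells without capture 1 and 3 with the stricter gate. Kcnj10, the channel of the intermediate cells, was at 555, 794 and 489 CPM in marginal cells and 2462 ± 286 CPM in intermediate cells (-2.32, adjusted p = 8.79e-13), and at 217, 404 and 160.2 CPM with the stricter gate. Car12, a membrane carbonic anhydrase, was at 347, 326 and 375 CPM, where intermediate cells had 16.2, 10.6 and 15.1 CPM and basal cells 0, 7.08 and 2.74 CPM (4.33, SE 0.24, adjusted p = 5.95e-20, and 5.94, SE 0.34, adjusted p = 9.19e-19). The cytosolic Car2 was lower, at 212 ± 55.1 CPM, by 2.06 and 0.76, and with the stricter gate at 72.4, 146 and 75.9 CPM, with changes of -3.03 and -1.71. Over 7 tested genes of bicarbonate and anion exchange, 2 were higher and 4 lower than in intermediate cells, and 2 were higher and 1 lower than in basal cells, with medians of -1.41 (-1.37 to -0.91 without a capture) and -0.06 (-0.24 to 0.13, and 0.09 without TMM scaling). With the stricter gate 2 were lower than in basal cells and the medians were -1.97 and -0.30. For the 17 tested subunits of the vacuolar proton pump the counts were 5 and 3, and 4 and 0, with medians of -0.10 (-0.18 to 0.04 without a capture, and 0.24 without TMM scaling) and 0.27 (0.23 to 0.34). The 3 lower than in intermediate cells were near the share of all tested genes (14.6%). Without capture 2, and also without capture 3, 2 were higher and 1 lower than in intermediate cells, and without capture 3 there were 2 higher than in basal cells.

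Calcium genes gave 5 higher and 1 lower of 11 against intermediate cells, and 5 higher and 2 lower against basal cells, with the same 5 higher in both and medians of 0.03 and 0.32. Without capture 1, and also with the stricter gate, 3 were lower than in intermediate cells, and without capture 3 there was 1 lower than in basal cells. Without a capture the medians were 0.75 to 0.81 and 0.68 to 0.70, and with the stricter gate -0.38 and 0.01. The 5 were Atp2b1, Itpr1, Itpr2, Mcoln3 and Trpv4. Atp2b1, a calcium pump of the plasma membrane, was at 605, 645 and 686 CPM against 88.0 ± 9.19 CPM and 109 ± 22.0 CPM (2.53, SE 0.17, adjusted p = 1.48e-16, and 2.34, SE 0.19, adjusted p = 1.76e-14). The inositol trisphosphate receptor Itpr2 was at 317, 353 and 385 CPM (3.29 and 3.52). Mcoln3, a lysosomal cation channel, was at 139, 159.7 and 202 CPM (2.45 and 3.39). Trpv4, an osmosensitive channel, was at 99.2, 66.5 and 54.3 CPM (4.16 and 1.48). Of 15 receptors listed for marginal cells 7 could be tested, with medians of 0.65 (0.34 to 0.82 without a capture) and -0.06 (-0.35 to 0.32, and 0.09 without TMM scaling). In each comparison 3 were higher and 2 lower. Without capture 2 only 4 could be tested, and 1 was higher and 0 lower in each. Besides Tacr3 and Gpr176 the purinergic receptor P2ry2 was higher than in intermediate cells, at 49.6, 24.4 and 14.8 CPM (3.40, SE 0.71, adjusted p = 0.000133). Against basal cells P2ry2 gave -0.06 (adjusted p = 0.949), which turns to 0.09 without TMM scaling, and P2rx4 gave 1.32 (adjusted p = 0.0114).

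Genes of the basement membrane and its receptors gave 5 higher and 4 lower of 13 tested against intermediate cells, and 4 and 5 against basal cells, with medians of -0.24 and -0.51. Without a capture these were -0.45 to 0.61 (the highest without capture 2) and -0.94 to -0.88, and the first was 0.11 without TMM scaling and 0.48 with the stricter gate. Itgb5, an integrin beta subunit, was at 744, 703 and 642 CPM, against 23.7 ± 9.28 CPM and 44.5 ± 4.85 CPM (4.52, SE 0.21, adjusted p = 5.04e-22, and 3.82, SE 0.22, adjusted p = 1.24e-18). Itga6, a laminin receptor that overlaps Gm17250 on the other strand, was at 69.4, 97.6 and 114 CPM (5.58 against intermediate cells), and the laminin chain Lamb1 at 79.3, 48.8 and 64.2 CPM (4.35 and 3.92). In the ephrin, semaphorin, netrin and slit families 7 of 17 tested were higher and 8 lower than in intermediate cells, and 4 were higher and 5 lower than in basal cells (8 lower without capture 1 and 2 without capture 2), with medians of -1.56 and -0.57. The first median was -0.25, -1.69 and -0.24 without captures 1, 2 and 3, and the second -0.75 to -0.34. The ligands Efna5 (79.3, 111 and 119 CPM) and Efnb2 (109, 68.8 and 74.1 CPM) and the receptor Epha5 (79.3, 46.6 and 39.5 CPM) were higher than in both types. Hgf, the growth factor that the receptor Met binds and a gene of nonsyndromic deafness, was at 49.6, 73.2 and 74.1 CPM. Hgf had 3 UMIs in intermediate and 2 in basal cells, a ratio of 66.9 (21.7 to 335) and 44.0 (11.6 to 372). Of 6 tested deafness genes named for marginal cells or for several strial types, 2 were higher and 4 lower than in intermediate cells, and 3 were higher and 2 lower than in basal cells, with medians of -1.27 and 0.61. Without capture 1 these were -0.51 and 1.60, without capture 2 or 3 they were -1.41 to -1.40 and 0.44 to 0.57, and with the stricter gate -1.77 and 0.12, with 3 lower than in basal cells.

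Genes of mitochondrial energy supply are encoded in the nucleus and in mitochondrial DNA. Of 85 nuclear genes of oxidative phosphorylation, 79 could be tested. Against basal cells 55 were higher and 1 lower, with a median of 0.71 (0.67 to 0.78 without a capture), and against intermediate cells 20 were higher and 1 lower, with a median of 0.28 (0.22 to 0.41, and 0.63 without TMM scaling). Their sum was 51534, 41887 and 42657 CPM in marginal cells, 32576, 32270 and 28981 CPM in intermediate cells and 24578, 25748 and 22252 CPM in basal cells, so that no capture overlapped between marginal cells and another type, and none did after TMM scaling. The counts depend on the scaling: without TMM 69 were higher than in basal and 59 than in intermediate cells. Over all genes tested, 1171 and 1652 were then higher. With the stricter gate 73 and 44 of the list were higher. DESeq2 called 46 and 11 higher, and leaving out 1 capture left 37 to 50 and 10 to 13. By complex, the genes higher than in basal cells were 23 of 36 in complex I, the NADH dehydrogenase, 4 of 4 in complex II, 6 of 9 in complex III, 10 of 14 in complex IV, the cytochrome c oxidase, and 11 of 15 in complex V, the ATP synthase. Against intermediate cells they were 9, 2, 2, 2 and 5. Of all tested genes 15.2% were higher than in basal and 15.1% higher than in intermediate cells. The 2 of 14 in complex IV against intermediate cells were near that share, and 1 gene of complex IV was lower. By summed CPM after TMM scaling the marginal captures overlapped those of intermediate cells in complex III, with a lowest marginal value of 4545 and a highest intermediate value of 4702, and in complex IV, with 12977 and 14483.

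The 13 genes that mitochondrial DNA encodes went the other way. All 13 were lower than in intermediate cells, by a median of 1.02 on the log2 scale (12 without TMM scaling), and none passed the test against basal cells, with a median of -0.21 (-0.32 to -0.06 without a capture). Their sum was 171928, 256589 and 218475 CPM in marginal cells, 315008, 340044 and 356825 CPM in intermediate cells and 209255, 213394 and 218655 CPM in basal cells. The marginal captures lay below all those of intermediate cells and overlapped those of basal cells. With the stricter gate the sum in marginal cells was 151537, 236978 and 192559 CPM. Mt-Atp6, a subunit of ATP synthase, was at 33899.6, 55978 and 47625 CPM against 71612 ± 7421 CPM in intermediate cells (-1.02, SE 0.19, adjusted p = 2.71e-05). The share of mitochondrial UMIs, which these same 13 genes make up, is also read as a sign of RNA quality. Its median over cells was 15.8%, 26.3% and 20.0% in marginal cells and 29.5%, 33.1% and 35.3% in intermediate cells. As it is the same measure, it cannot be used as a separate check, and the part of RNA quality in the result was not tested.

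**Figure D4:**
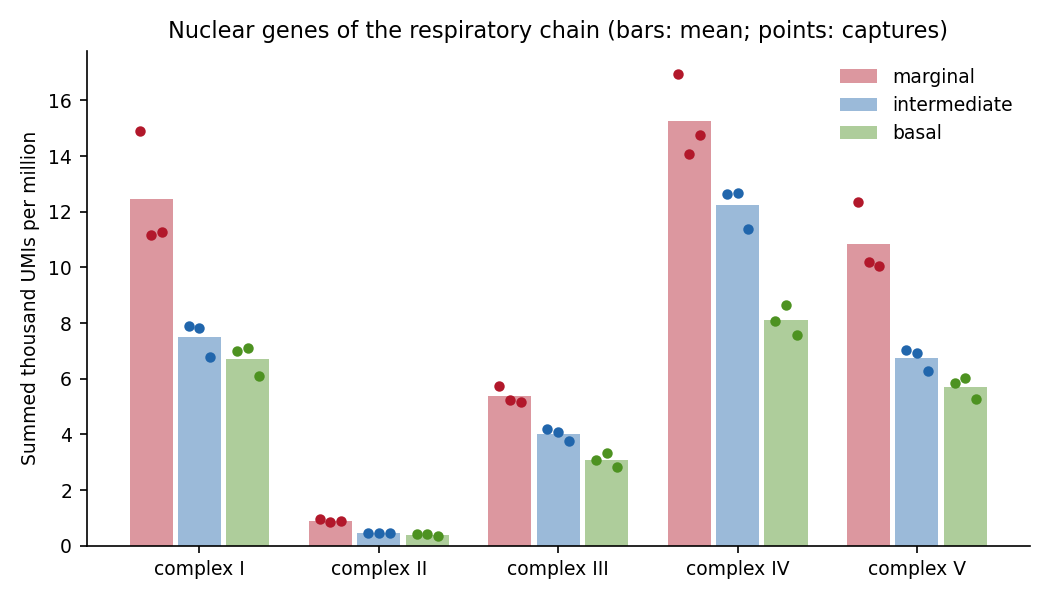
Summed level of the nuclear genes of each respiratory complex, in CPM divided by 1000, with bars at the mean, from 0, and 1 point for each of the 3 captures, for marginal, intermediate and basal cells. All 3 marginal captures lie above all captures of the other types in each of the 5 complexes in this unscaled CPM, and in complexes III and IV they overlap intermediate cells after TMM scaling.

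Glycolysis genes gave 10 higher and 1 lower of 15 tested against basal cells and 5 higher and 2 lower against intermediate cells, with medians of 1.01 (0.93 to 1.08 without a capture) and 0.10 (0.05 to 0.13). Without capture 2 there was 1 lower than in intermediate cells, and without TMM scaling 7 were higher and 1 lower, with a median of 0.44. Pgam1, a phosphoglycerate mutase, was at 1180.2, 1313 and 1170.4 CPM, above 423 ± 36.0 CPM in intermediate and 302 ± 41.4 CPM in basal cells (1.18, adjusted p = 4.12e-07, and 1.84, adjusted p = 4.77e-11). Pkm, pyruvate kinase, was at 823, 1011 and 923 CPM (1.15 and 1.30). Aldoa, an aldolase, was lower than in intermediate cells, at 665, 475 and 504 CPM (-0.86, adjusted p = 0.000128). Cytosolic ribosomal protein genes were lower than in basal cells in 75 of 77 tested, by a median of 1.28 on the log2 scale. Their sum was 54698, 56757 and 55427 CPM against 86770, 114978 and 145344 CPM, and in intermediate cells 43865, 43547 and 41307 CPM. The fibrocyte and B cell markers in the basal sums, given above, had the same order over captures as these basal sums. So did the markers there of endothelial cells (5.55, 110 and 126 CPM) and pericytes (22.2, 41.1 and 98.7 CPM). Markers of neutrophils (0, 2.83 and 35.6 CPM) and erythroid cells (217, 348 and 1859 CPM) did so too. Those of macrophages (5.55, 11.3 and 2.74 CPM) and of basal cells (5940, 5361 and 3408 CPM) did not. Nor did those of spindle and root cells or of intermediate cells. In intermediate cells markers of neutrophils (3.25, 4.56 and 47.6 CPM) and erythroid cells (231, 353 and 5697 CPM) also rose, while the ribosomal sum did not. The part of other cells in the basal sums was not tested. Against intermediate cells none of the 77 passed the test, but without TMM scaling 31 were higher. Heat shock genes gave 5 higher and 1 lower of 10 against intermediate cells (0 lower without any 1 capture) and 1 higher and 3 lower against basal cells (1 lower without capture 2 and also without TMM scaling). Immediate-early genes, which dissociation is known to induce, gave 3 higher of 7 against intermediate (1 without capture 3) and 3 lower against basal cells (0 without capture 2). The medians were 0.38 (0.17 to 0.75 without a capture) and -0.14 (-0.19 to -0.06, and 0.02 without TMM scaling) for heat shock genes. For immediate-early genes they were 0.65 (0.29 to 0.93) and -0.20 (-0.63 to 0.12, and 0.09 with the stricter gate). Their part in the other results was not tested.

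The nuclei gave a separate reading of the same type with another method. The same rule took 2235 marginal and 555 intermediate nuclei from the 1 nuclei capture, and they are compared without a test. Of the 941 genes higher in marginal than in intermediate cells, 922 had at least 10 UMIs in these nuclei, and 887 of them (96.2%) were also higher in marginal nuclei, while over all tested genes 57.8% were. Of the 912 lower, 893 could be read and 844 (94.5%) were lower. Enpep was at 1409 CPM in marginal nuclei (95% Poisson interval 1375 to 1443) against 77.2 (63.0 to 93.7) in intermediate nuclei. Kcne1 was at 955 CPM (927 to 983) against 210.5 (186 to 237), and Sgk1 at 300.1 (285 to 316) against 42.4 (32.0 to 55.1). The marker Dct of intermediate cells was at 1783 CPM (1745 to 1822) in marginal nuclei and 24219 CPM (23955 to 24486) in intermediate nuclei. Several genes too low for the test in cells were well read in nuclei. Ror1, a receptor tyrosine kinase, had 27.4 ± 8.66 CPM in cells and 788 CPM (763 to 814) in marginal nuclei against 9.08 CPM (4.69 to 15.9) in intermediate nuclei. Esrrg, the third estrogen-related receptor, had 19.1 ± 1.18 CPM in cells, and 535 (515 to 557) against 89.3 CPM (73.9 to 107) in nuclei. Eya4, a deafness gene, had 3.86 ± 3.45 CPM in cells, and 303 (287 to 319) against 18.9 CPM (12.2 to 27.9) in nuclei.

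**Figure D5:**
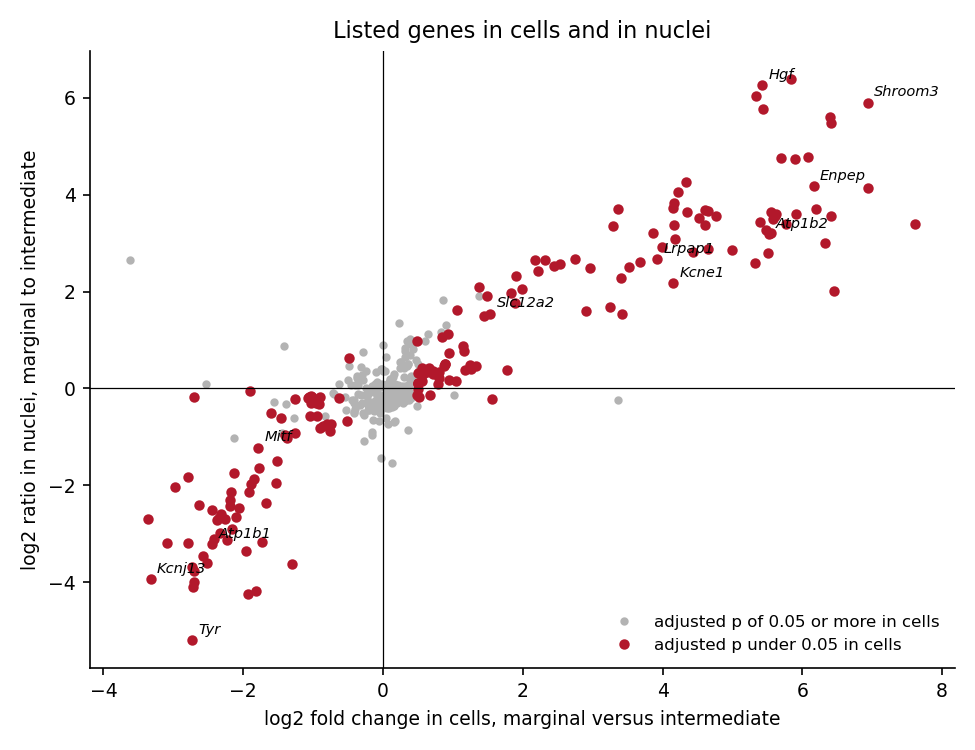
Log2 ratio of marginal to intermediate in the nuclei capture (y axis) against the log2 fold change in the whole-cell captures (x axis) for 389 listed genes, in red where the adjusted p in cells was under 0.05. Of 108 such genes higher in cells 103 were higher in nuclei, and of 73 lower 72 were lower.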

How the data were processed

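The authors aligned and counted the reads with Cell Ranger 2.0.0 against mm10 (submitters' processing notes) and deposited filtered matrices of UMI counts per gene and barcode, which were used as deposited. Whether counting used strand, and whether doublets were removed before deposit, is not given in the sources used here. The number of mice pooled per capture differs between the sources, so no number is given. The nuclei matrix lists 48816 genes and the cell matrices 27998, of which 27873 are in both.

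Marginal cells, the gene lists and the tests were chosen with earlier results of these data known. The marginal, intermediate and basal UMIs of each capture were summed, and the 15 genes of the gate, Malat1 among them, were left out of the test. Sums were compared in edgeR 4.0.16 (R 4.3.3; filterByExpr, TMM, quasi-likelihood test) with capture as a block, and p-values were adjusted by Benjamini-Hochberg over 6246 genes. The block rests on each capture's sums coming from 1 suspension: the correlations of same-capture deviations were 0.00408 to 0.136. Fold changes against a type with 0 UMIs are given against a floor of 3 counts over the group, and ratios to 1 to 3 UMIs with exact intervals. Genes were named by rule: the 20 first by the smaller fold change among those called higher than both types in all captures (mean at least 50 CPM), the 5 lowest by the same rule (at least 50 CPM in both other types) and, with the highest level or largest change first, members of 33 lists, some of which are not reported here. Positions are from GENCODE vM21, with 27645 of 27998 gene identifiers matched, and promoters from RefSeq. Alternatives were DESeq2 1.42.0, no filter, no TMM, no block, other gates, Scrublet scores (scanpy 1.11.5) and leaving out captures. The edgeR step was tested on simulated counts.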

Additional observations from a re-analysis of the deposited data

How the results depend on the processing

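The counts of called genes moved with a few settings. Capture 2 holds most of the marginal UMIs, and leaving out 1 capture gave 577 to 1030 genes higher and 512 to 868 lower than in intermediate cells, 590 to 1053 higher and 619 to 1128 lower than in basal cells, 401 to 684 higher than both and 177 to 298 lower than both, with the lowest count in each case without capture 2. Without TMM scaling 1652 genes were higher and 605 lower than in intermediate cells and 224 lower than both. DESeq2 called 571 genes lower than in intermediate cells and 199 lower than both. A gate at 0.4% of UMIs kept 37 marginal cells and a ratio of 10 to the intermediate genes kept 47, with a median mitochondrial share of 14.8% (mean over captures) against 20.7%. The median cell had 3099 genes with all its UMIs and 1362 at 3000 UMIs. With no replicate block for the capture, 908 genes were higher and 878 lower than in intermediate cells, 935 higher and 1028 lower than in basal cells, and no count moved by over 1.5 times. Cells and nuclei could not be paired, since the nuclei came from a separate suspension, and no test against spindle-like cells could be run with 4 cells.

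Of 96 log2 fold changes of named genes, 85 passed the threshold and none of these changed sign in an alternative that could test it (88 of the 96 without capture 2 and at the ratio of 10, 94 at the 0.4% gate, all 96 otherwise). Over 1326 values from the alternatives, 1281 were the same, 23 weaker, 9 stronger and 13 changed sign. Of the weaker ones, 7 were without capture 2. Those that did change sign were within their errors. They were, against intermediate cells, Atp13a3 (-0.28 without capture 2, 0.69 without capture 1, and -0.231 with the 0.4% gate), P2rx4 (-0.12 without capture 3, 0.49 without capture 2) and Ppargc1a (0.10 without TMM). Against basal cells they were Mitf (0.0968 without TMM, 0.13 without TMM and mitochondrial genes, 0.06 and 0.13 without captures 1 and 2, -0.28 without capture 3, 0.0216 with a 0.1% gate) and P2ry2 (0.0864 and 0.11 in the same settings, -0.35 to 0.14 without a capture, 0.0204 with a 0.1% gate). The setting without TMM and mitochondrial genes was added after seeing the data. The cause of these changes was not tested. With 3 captures and 9 cells in capture 1, genes of low count are limited by depth: genes under the filter were not tested, and values near 10 CPM in capture 1 rest on 1 UMI.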
